A study of Mus musculus with 12 samples.

Results

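The olfactory receptor probes of a mouse copy number array were taken as all autosomal probes whose gene name in the scanner files starts with Olfr. They numbered 666 of 40726 autosomal probes and carried 600 gene names, 562 of them with 1 probe and 38 with more. All 666 were described in the files as olfactory receptors. RefSeq (GRCm38.p6) held 662 of them by accession or symbol, 658 as protein coding genes and 3 as transcribed pseudogenes. The probes were 45 to 60 bases long and had a median GC content of 36.7%, as had all autosomal probes.

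DNA from cultures of malignant peripheral nerve sheath tumours (MPNST) was compared with DNA of wild-type, non-neoplastic Schwann cells by array comparative genomic hybridisation, in which both DNAs compete for the same probes. All tumours came from P0-GGFβ3 mice, in which a Schwann cell promoter drives a neuregulin-1 isoform, so every tumour carried the transgene and the reference did not. The mixed background, labelled C57BL/6J x SJL/J, had 7 tumours: A18 at passage 11, 231 Trig with no passage given, A202 at passage 6, A390 at passage 7, A292 at passage 8, A382 at passages 8 and 9, and A394 at passage 5. The C57BL/6J background had 4 tumours: B86 at passage 6, B91 at passage 9, B96 at passage 8 and B76 at passage 13. Passages 9, 11 and 13 exceed the limit of 8 that the growth notes give for tumour cultures, so the passage numbers, taken from the sample titles, are not settled. The reference Schwann cells are labelled C57BL/6J. At several probes described below (Olfr918, Olfr1404, Olfr1403 and Olfr207) all 4 C57BL/6J tumours stood apart from it, and whether the strain labels hold was not tested, which bears on every ratio over the reference. Tumour cultures were started with forskolin and neuregulin-1β and then kept without them, while the reference cells were kept with both throughout. Animal ages were not given in the sources used here. The tumours are cultures of explants, and hybridised DNA carries no expression markers by which the cell type could be checked.

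Olfactory receptors are G protein-coupled receptors of olfactory sensory neurons, and they form the largest gene family of the mouse genome. Most genes sit in tandem clusters with near copies beside each other, and each mature neuron uses an allele of a single gene. The clusters have grown and shrunk through duplication and deletion, and inbred mouse strains are known to differ there in copy number and in sequence. The array measures DNA, so the genes are described here as stretches of genome and not for their function. A lower ratio at a probe can reflect fewer copies or a sequence that binds the probe less well, and the array cannot tell these apart.

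The probes below carried the differences described next. They are shown with their mm9 coordinates as the array files give them, 5′ to 3′ as printed in the array design, which states no strand, and no base is marked because no site within a probe was measured.
Olfr1048, chr2:86076034-86076093: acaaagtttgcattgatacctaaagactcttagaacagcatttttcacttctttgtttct
Olfr1046, chr2:86057282-86057341: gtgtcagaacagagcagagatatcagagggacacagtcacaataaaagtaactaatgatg
Olfr1040, chr2:85985918-85985977: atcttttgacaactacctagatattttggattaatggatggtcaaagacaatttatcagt
Olfr1125, chr2:87275405-87275464: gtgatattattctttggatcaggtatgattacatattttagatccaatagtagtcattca
Olfr643, chr7:111207490-111207549: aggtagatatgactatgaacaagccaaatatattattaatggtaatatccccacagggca
Olfr575, chr7:110104095-110104154: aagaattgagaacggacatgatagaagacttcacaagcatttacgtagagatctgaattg
Olfr575, chr7:110103156-110103215: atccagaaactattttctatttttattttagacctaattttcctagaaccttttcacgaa
Olfr644, chr7:111216571-111216626: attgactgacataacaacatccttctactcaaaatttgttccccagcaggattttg
Olfr918, chr9:38481022-38481081: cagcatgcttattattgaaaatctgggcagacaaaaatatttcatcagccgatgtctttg
Olfr1404, chr1:175145756-175145815: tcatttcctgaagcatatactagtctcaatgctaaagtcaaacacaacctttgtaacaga
Olfr1403, chr1:175201181-175201234: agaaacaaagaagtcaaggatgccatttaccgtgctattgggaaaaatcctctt
Olfr207, chr16:59361579-59361638: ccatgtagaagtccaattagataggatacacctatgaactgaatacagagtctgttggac
Olfr745, chr14:51262595-51262648: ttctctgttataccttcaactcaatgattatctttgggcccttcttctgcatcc

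The files give a gene for each probe and not whether it lies in an exon, an intron or an untranslated region. The design lists 1 perfect match in the genome for each of the 666 probes. Partial matches to near copies are not listed, so signal from a neighbouring paralogue cannot be separated from that of the named gene.

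Values are log2 of tumour over reference signal, as deviation from the median of the probe's own chromosome on that array, so that gain or loss of a whole chromosome drops out. The arrays lay on 3 slides of 4 arrays, and slide 1 (A18, 231 Trig, A202 and B86) was read on another scanner than slides 2 and 3. On each array at least 99.1% of olfactory receptor spots exceeded background clearly in either channel, 658 of the 666 probes were so on all 12 arrays, and none was saturated. Tumour DNA carried Cy5 on every array, so a dye effect and a tumour effect cannot be told apart in any ratio against the reference. Between passages 9 and 8 of A382, the median absolute difference was 0.06 for olfactory receptor probes and 0.06 for all autosomal probes, and no olfactory receptor probe differed by as much as 0.5.

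Olfactory receptor probes lay slightly above the median of their chromosomes in every tumour. Their median deviation was 0.05 to 0.12 in the mixed tumours and 0.03 to 0.12 in the C57BL/6J tumours. The 766 other probes inside the same clusters had medians of 0.03 to 0.09 in mixed tumours and 0.03 to 0.12 in C57BL/6J tumours. Set against the non-olfactory probes within 2 Mb of each cluster, the medians of the olfactory receptor probes were 0.03 to 0.12 in mixed and 0.04 to 0.13 in C57BL/6J tumours. After the ratios were adjusted for the GC content of the probe, they were 0.05 to 0.12 and 0.04 to 0.12 in the same order of backgrounds. The medians were above 0 in both backgrounds and at the other probes of the clusters too.

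The probes fell into 44 clusters, of which 29 held at least 3 probes and 646 probes in all, while 10 were lone probes. Of the 319 cluster means by tumour, 17 were at least 0.2 above the chromosome median and 5 were at least 0.2 below it. In 15 of the 29 clusters the mean was above 0 in all 11 tumours, and in 3 it was below 0 in all. The largest cluster, with 126 probes over 4852 kb on chromosome 2 (85240363 to 90092398), averaged 0.01 ± 0.07 in mixed tumours and 0.08 ± 0.05 in C57BL/6J tumours (SD, n = 7 and 4). Its lowest means were those of A18 at -0.11 and A202 at -0.06. The second largest, 94 probes on chromosome 7 (109683252 to 112517840), averaged 0.06 ± 0.03 in mixed and 0.08 ± 0.04 in C57BL/6J tumours. The third, 57 probes on chromosome 9 (37800052 to 39995582), averaged 0.09 ± 0.05 in mixed and 0.17 ± 0.07 in C57BL/6J tumours, and it was the highest cluster of B91 at 0.21 and of B96 at 0.19.

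The other large clusters were close to these values. The 42 probes on chromosome 19 (11929458 to 13902248) averaged 0.12 ± 0.03 in mixed and 0.16 ± 0.02 in C57BL/6J tumours. The 33 probes on chromosome 10 (128427744 to 129647309) averaged 0.14 ± 0.04 in mixed and 0.19 ± 0.04 in C57BL/6J tumours, and they were the highest cluster of A394 at 0.20. The remaining 5 of the 10 largest clusters, with 20 to 32 probes each on chromosomes 7, 9, 2, 14 and 17, had means of 0.04 to 0.11 in mixed and 0.04 to 0.13 in C57BL/6J tumours. None of the 10 largest clusters thus differed between the backgrounds by as much as 0.1.

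Most of the highest and lowest clusters of single tumours were small. The 6 probes on chromosome 11 from 58269185 to 59403500 were the lowest cluster in 9 of 11 tumours, with -0.14 in 231 Trig and -0.31 in A382 as the ends among the mixed tumours it led, against -0.18 in B86 and -0.33 in B76 among the C57BL/6J tumours. The medians of the 6 probes were -0.05, -0.16, -0.23 and -0.28 in the same order of tumours. An Olfr313 probe of this cluster, from 58630808, had -0.55, -1.04, -0.34 and -1.19 in them. Its values followed slide: they were -0.69 to -0.34 in the tumours of slide 1 and -1.19 to -0.75 in the others. The reference channel at this probe was -0.02 to 0.35 on slide 1 and 1.39 to 1.98 on the other slides. Differences between tumours at it therefore cannot be told apart from those between slides. The lowest cluster of A18 was that of 4 probes on chromosome 7 from 6427561, at -0.16. The lowest of A202 was that of 5 probes on chromosome 4 from 43708513, at -0.22, where the 6 other mixed tumours lay between 0.04 and 0.15. That mean rested on the probe of Olfr156, at -1.54 in A202, and the median of the 5 probes was 0.08. The 3 probes on chromosome 11 from 50783421 were the highest cluster of 231 Trig (0.30), A202 (0.30) and B86 (0.31), which share slide 1. The 5 probes on chromosome 1 from 94376295 were the highest of A18 (0.32) and A292 (0.16). Their Olfr1414 probe had 1.22 in A18 and 0.76 in A292, and the medians of the 5 probes were 0.24 and -0.02. The highest of A390 was a cluster of 5 probes on chromosome 16 from 19286230 (0.20), that of A382 a cluster of 11 probes on chromosome 16 from 58823585 (0.22), and that of B76 a cluster of 4 probes on chromosome 10 from 78432921 (0.25).

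**Figure D1:**
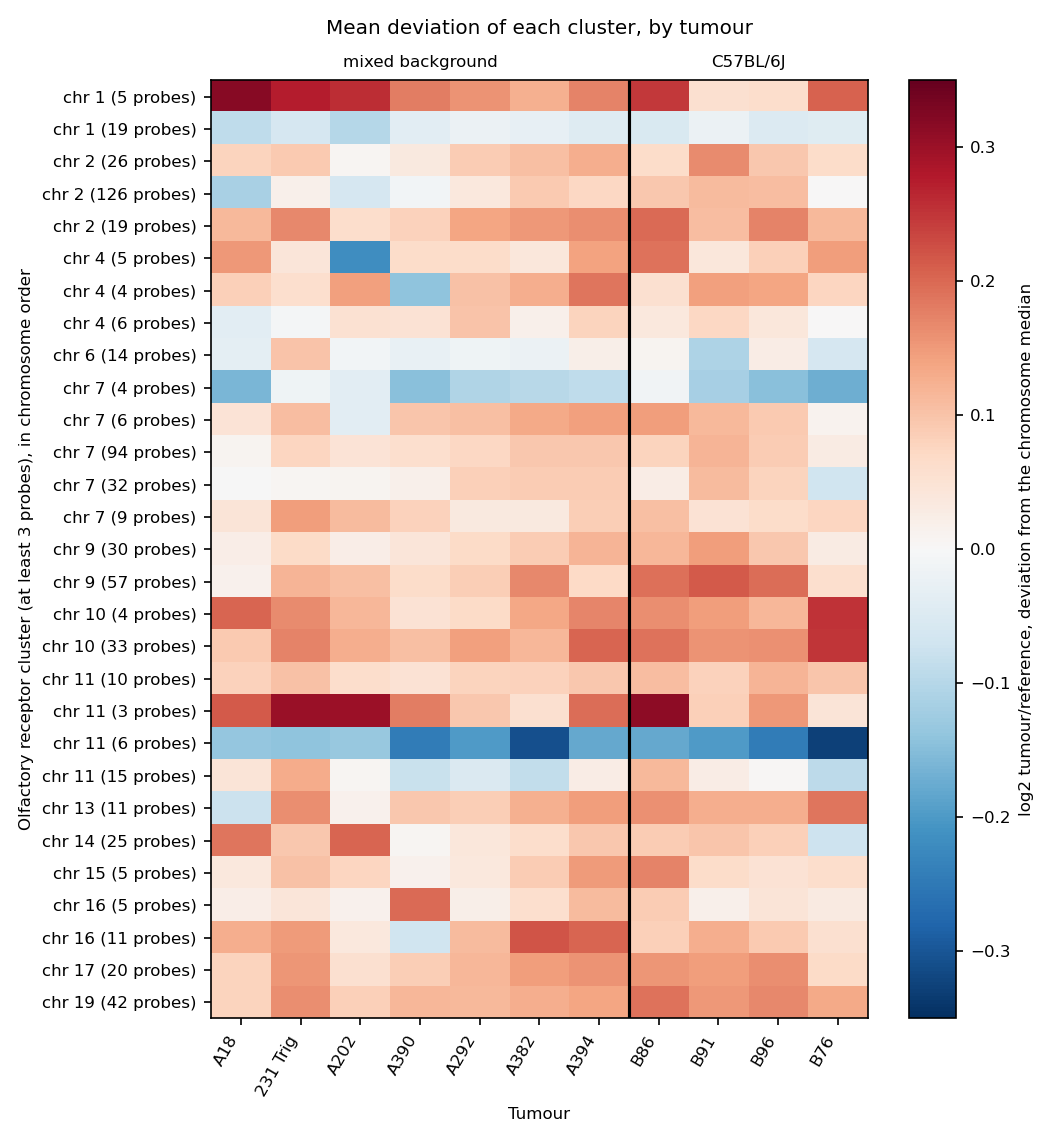
Mean log2 deviation from the chromosome median of each of the 29 olfactory receptor clusters with at least 3 probes (rows, in chromosome order) in each tumour (columns, mixed left of the line and C57BL/6J right of it). Most cells lie between -0.2 and 0.2, and the low row on chromosome 11 and the low cell of A202 on chromosome 4 stand apart.

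The first comparison asked which olfactory receptor probes differ between mixed and C57BL/6J tumours. A probe was called with a limma fit over all autosomal probes where its p, adjusted by Benjamini-Hochberg, was under 0.05 and its size at least 0.2 log2. Of the 666 probes, 1 was called higher and 1 lower in mixed tumours, beside 0.0933% and 0.0417% of all autosomal probes, or 0.135% in either direction. With 1 probe in each direction, the count cannot be told apart from that background. At an unadjusted p under 0.05, 10.4% of the olfactory receptor probes passed, 20 higher and 49 lower in mixed tumours, against 6.9% of all autosomal probes.

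The probe called higher lies in Olfr643, a receptor gene of the second largest cluster. Its log2 values were 1.38 in A18, 0.89 in 231 Trig, 0.59 in A390, 1.04 in A292, 0.99 in A382 and 1.10 in A394, against 0.29 in B86, 0.26 in B91, 0.33 in B96 and 0.14 in B76. Every measured mixed tumour lay above every C57BL/6J tumour. The spot of A202 was dropped as marked by the scanner software, and when it was kept its value was 0.51 and the probe was no longer called. The difference was 0.74 with a standard error of 0.12 (limma adjusted p = 0.044). Within slides 1, 2 and 3 it was 0.85, 0.62 and 0.80.

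The probe called lower lies in Olfr575, a receptor gene of the same cluster. Its log2 values were -0.51 in A18, -0.34 in 231 Trig, -0.17 in A202, -0.25 in A390, -0.42 in A292, -0.28 in A382 and -0.46 in A394, against -0.01 in B86, 0.11 in B91, 0.14 in B96 and 0.06 in B76. The backgrounds did not overlap, and the difference was -0.42 with a standard error of 0.07 (limma adjusted p = 0.033). Within slides 1, 2 and 3 the difference was -0.33, -0.42 and -0.48. Neither call held with slide as a block (limma adjusted p = 0.076 for Olfr643 and 0.075 for Olfr575), without 231 Trig (0.062 and 0.052), without A394 (0.072 and 0.052), or without B86 (0.13 and 0.090), B91 (0.16 and 0.15), B96 (0.16 and 0.17) or B76 (0.18 and 0.14). That of Olfr643 was also lost without A292 (0.066) or A382 (0.063), and that of Olfr575 without A18 (0.057).

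Olfr575 had 3 probes, and they did not move together. The probe from 110103156, chosen for description after its values were seen, had a difference of 0.51 in place of -0.42 (limma adjusted p = 0.31). It ranged from 0.24 to 0.90 in mixed tumours and from -0.40 to 0.28 in C57BL/6J tumours, so that the groups overlapped slightly. Of the 38 genes with several probes, Olfr575 had the widest range of differences over its probes, at 0.93, and the median range was 0.13. Olfr745 on chromosome 14 was next with 0.92, and no other gene exceeded 0.5.

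Near Olfr643, the probe of Olfr644 was low in mixed tumours. It too was chosen after its values were seen. Its log2 values ranged from -1.15 to -0.29 around a median of -0.81 in mixed tumours, and from -0.11 to 0.13 in C57BL/6J tumours, with no overlap. The difference was -0.74 with a standard error of 0.15, and the limma adjusted p of 0.11 missed the threshold.

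Among the 638 probes with a value in all 11 tumours, 10 had all 7 mixed tumours below all 4 C57BL/6J tumours, or 1.57% beside 0.817% of all autosomal probes. A single probe, in Olfr78, had them all above, or 0.157% beside 0.7%. Olfr78 is a receptor also known from the kidney and the carotid body. The log2 values of this probe averaged 0.44 ± 0.07 in mixed and 0.25 ± 0.07 in C57BL/6J tumours (SD, n = 7 and 4; limma adjusted p = 0.23). The gene has 2 probes, and the difference at the other was -0.003. The 10 probes below were those of Olfr421, Olfr1020, Olfr1030, Olfr1151, Olfr267, Olfr575, Olfr578, Olfr631, Olfr644 and Olfr851, with differences from -0.74 to -0.14. They were named because their groups did not overlap, and of them Olfr575 passed the test. Besides Olfr575, some of these genes had other probes that did not follow. The differences over the probes of a gene ran from -0.22 to -0.03 at Olfr421, from -0.22 to 0.06 at Olfr1020 and from -0.18 to 0.01 at Olfr631.

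**Figure D2:**
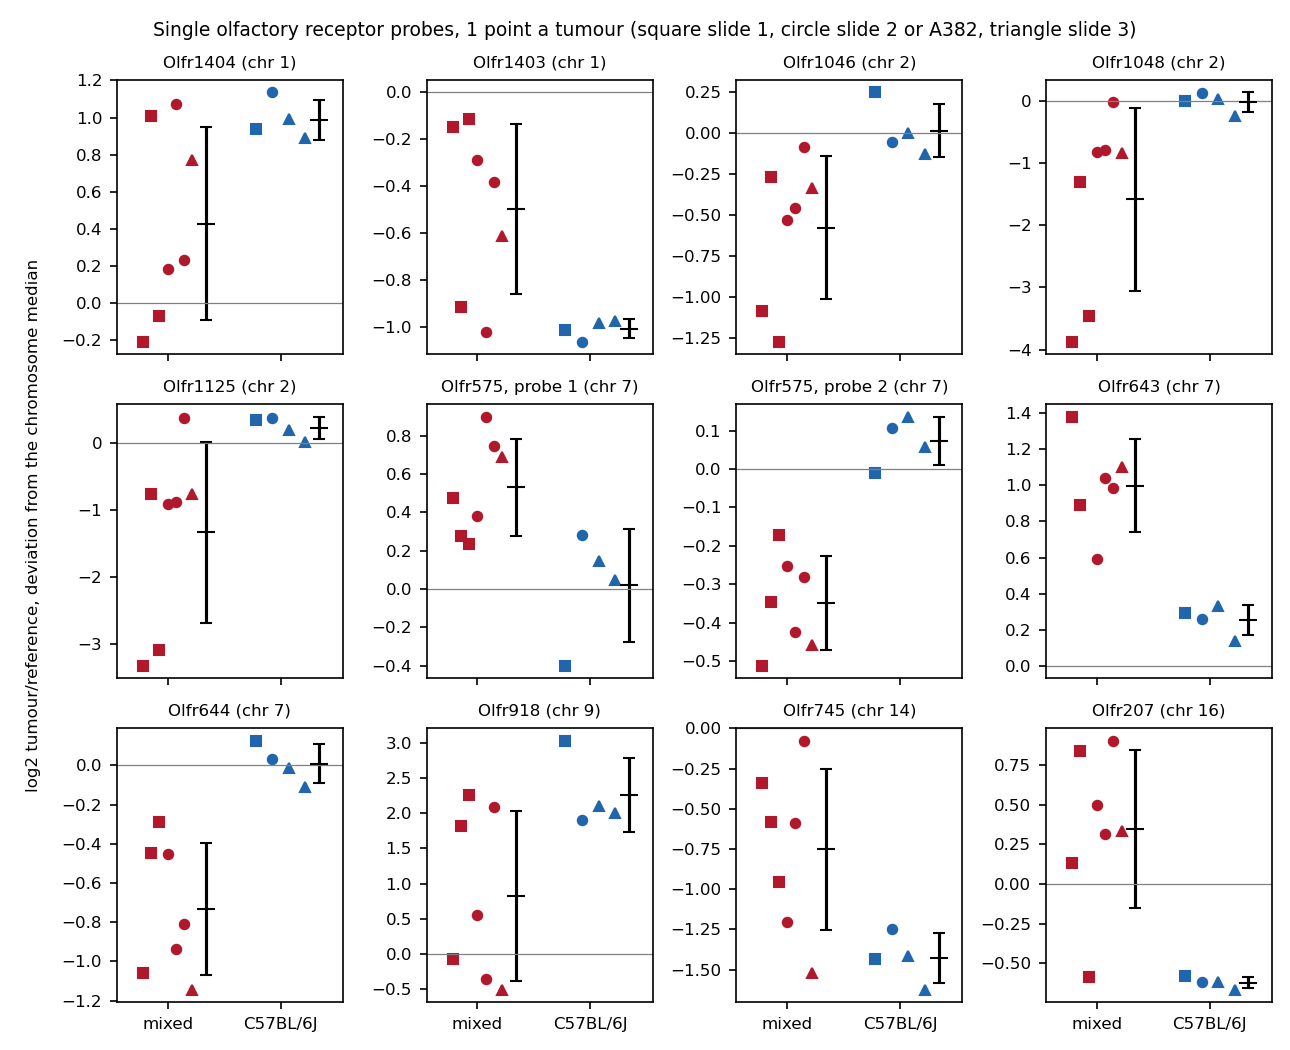
Log2 tumour over reference, as deviation from the chromosome median, at 12 olfactory receptor probes, with 1 point a tumour (mixed left, C57BL/6J right; bars show mean and SD; squares mark slide 1, triangles slide 3, circles slide 2 and A382, which was on slides 2 and 3). Mixed tumours spread over several levels at Olfr1048, Olfr1125, Olfr918 and Olfr1404. The C57BL/6J tumours lie closer together there, though at Olfr918 B86 (3.03) stands above the other 3 (1.90 to 2.11).

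The test of means passes over probes at which mixed tumours differ among themselves. Olfr1048, a receptor gene of the chromosome 2 cluster, was described whatever its values. Its log2 values were -3.87 in A18, -1.30 in 231 Trig, -3.46 in A202, -0.82 in A390, -0.78 in A292, -0.02 in A382 and -0.83 in A394, against -0.01 in B86, 0.13 in B91, 0.04 in B96 and -0.24 in B76. A18 and A202 were lowest by far, 4 other mixed tumours lay in between, and A382 lay within the C57BL/6J range. The difference of means was -1.56 with a standard error of 0.64, and it missed the threshold (limma adjusted p = 0.62). The 3 lowest tumours were on slide 1, as was B86 at -0.01, and the difference within slides 1, 2 and 3 was -2.87, -0.66 and -0.33.

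Olfr1046, the receptor probe next to Olfr1048 and also described whatever its values, spread less. It had -1.09 in A18, -0.27 in 231 Trig, -1.28 in A202, -0.53 in A390, -0.46 in A292, -0.09 in A382 and -0.33 in A394, against 0.25 in B86, -0.06 in B91, 0.00 in B96 and -0.13 in B76. A202 and A18 were lowest, and A382 overlapped with the C57BL/6J tumours. The difference was -0.59 with a standard error of 0.20 (limma adjusted p = 0.44).

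The same tumours were low at other probes of the cluster, which were picked out after their values were seen. Olfr1125, more than 1 Mb further along, had -3.32 in A18, -0.76 in 231 Trig, -3.08 in A202, -0.91 in A390, -0.87 in A292, 0.38 in A382 and -0.75 in A394, against 0.34 in B86, 0.38 in B91, 0.19 in B96 and 0.02 in B76. Olfr1040 had -3.62 in A18, -0.998 in 231 Trig, -0.59 in A390, -0.56 in A292, 0.20 in A382 and -0.59 in A394, against 0.05 in B86, 0.30 in B91, 0.22 in B96 and 0.14 in B76. The spot of A202 at Olfr1040 was dropped as marked by the scanner software, and its kept value was -4.04. At both probes A382 was the mixed tumour that lay within the C57BL/6J range.

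Of the 224 probes inside this cluster, 10 were at least 1 log2 below the C57BL/6J mean in both A18 and A202 (at Olfr1040 in A18 alone, for want of the spot), and 4 of them were olfactory receptor probes. The share of all autosomal probes this low in both tumours was not counted, so the 10 are not read as an excess. From 85976436 to 86087288, a stretch of 110.9 kb, 7 of 10 probes were low in this way, 3 of the 6 olfactory receptor probes among them. The low probes were not adjacent throughout: Olfr1043, Olfr52 and Olfr1045 lay between Olfr1040 and Olfr1046 with 0.04 to 0.12 in A18 and -0.11 to -0.01 in A202. Over the 7 low probes of the stretch the mean was -3.58 in A18, -3.47 in A202, -0.96 in 231 Trig, -0.74 in A390, -0.65 in A292, -0.65 in A394 and 0.10 in A382, against 0.02 in B86, 0.21 in B91, 0.14 in B96 and -0.05 in B76. The low probes were chosen on A18 and A202, so the values of those tumours are a description.

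**Figure D3:**
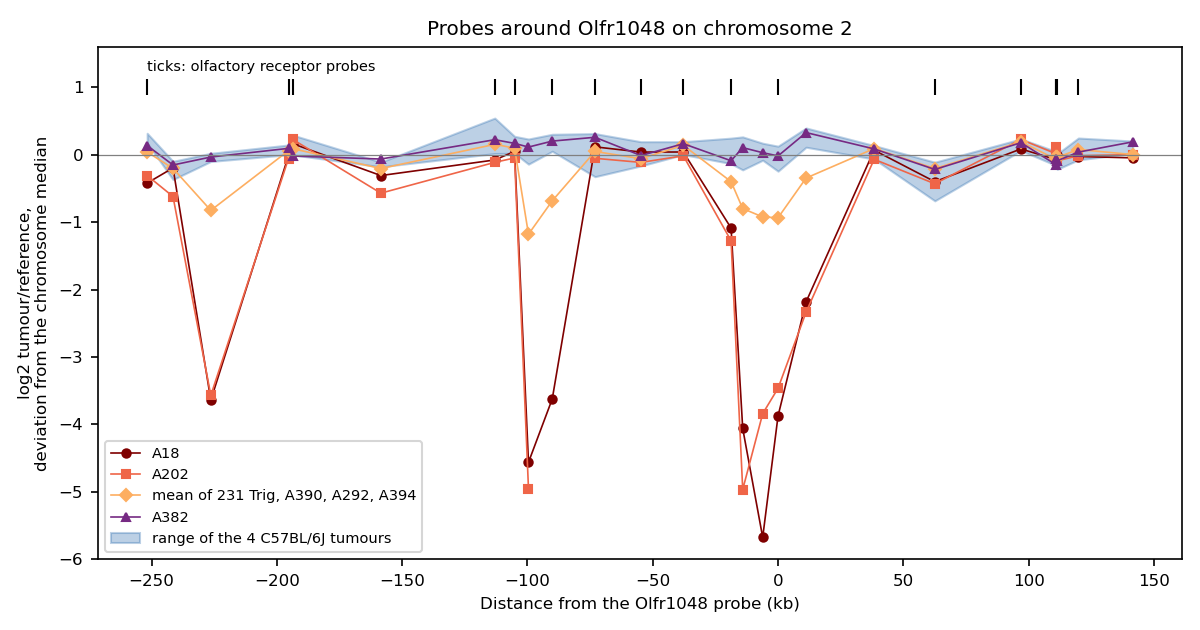
Log2 deviation from the chromosome median against distance in kb from the Olfr1048 probe, with ticks at olfactory receptor probes; the line for A202 breaks at the dropped spot of Olfr1040, and the band is the range of the 4 C57BL/6J tumours. A18 and A202 drop below -3 at several probes, the mean of 231 Trig, A390, A292 and A394 drops less, and A382 stays near the band.

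The channels were then read apart, since a ratio can move with either DNA. In the tumour channel, as deviation of log2 signal from the chromosome median of that channel, Olfr1048 had -5.93 in A18, -3.23 in 231 Trig, -5.39 in A202, -2.42 in A390, -2.57 in A292, -1.69 in A382 and -2.44 in A394, against -1.88 in B86, -1.36 in B91, -1.80 in B96 and -1.70 in B76. In the reference channel the same probe stayed between -2.04 and -1.58 on arrays of mixed tumours and between -1.85 and -1.43 on arrays of C57BL/6J tumours. The mixed tumours thus spread in the tumour channel at Olfr1048 and not in the reference channel. At Olfr1125 the tumour channel ranged from -4.62 to -1.16 in mixed and from -1.40 to -0.87 in C57BL/6J tumours, and the reference channel from -1.52 to -1.03 and from -1.42 to -1.19 on the same arrays.

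Over all olfactory receptor probes, none was called between backgrounds in the tumour channel, beside 0.00246% of all autosomal probes. At an unadjusted p under 0.05 in limma, 39 passed, 11 higher and 28 lower in mixed tumours, or 5.86% beside 3.69% of all autosomal probes. In the reference channel, which holds the same kind of DNA on every array, none was called, beside 0% of all autosomal probes. None passed there at an unadjusted p under 0.05 in limma either, beside 0.555% of all autosomal probes. The smallest adjusted p of an olfactory receptor probe was 0.19 in the tumour channel and 0.99 in the reference channel.

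**Figure D4:**
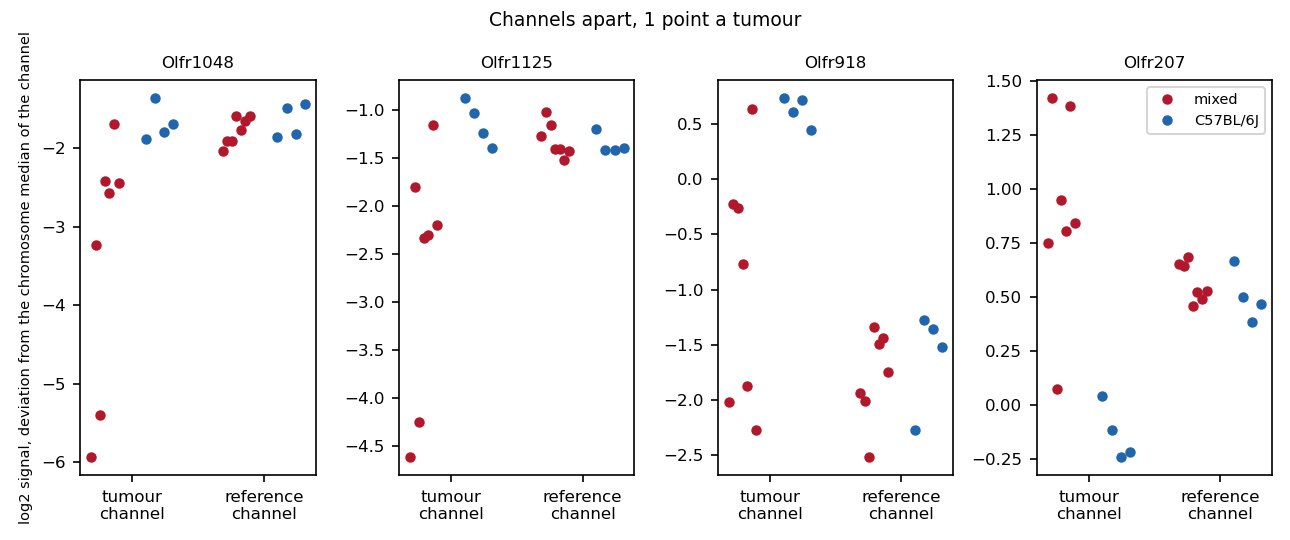
Log2 signal of the tumour channel (left in each panel) and the reference channel (right) at 4 olfactory receptor probes, as deviation from the chromosome median of the channel, with 1 point a tumour (red mixed, blue C57BL/6J). At Olfr1048 and Olfr1125 the mixed tumours spread in the tumour channel, from -5.93 to -1.69 and from -4.62 to -1.16, and lie close together in the reference channel.

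The comparison with the reference asked which probes stand apart from C57BL/6J Schwann cell DNA. In mixed tumours 122 olfactory receptor probes were called higher and 38 lower, or 18.3% and 5.71%, beside 13.4% and 14.9% of all autosomal probes. In C57BL/6J tumours 155 were called higher and 28 lower, or 23.3% and 4.2%, beside 14.9% and 16% of all autosomal probes. In either direction 28.2% of all autosomal probes were called in mixed and 30.9% in C57BL/6J tumours. At a size of at least 0.5 log2, 7 were called higher and 8 lower in mixed tumours, or 1.05% and 1.2%, beside 0.955% and 1.37%. At that size 18 were called higher and 6 lower in C57BL/6J tumours, or 2.7% and 0.901%, beside 1.62% and 1.73%.

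The highest of these was Olfr918, a receptor gene of the chromosome 9 cluster. Its log2 values in the C57BL/6J tumours were 3.03 in B86, 1.90 in B91, 2.11 in B96 and 2.00 in B76, all far above the reference, although the labels give tumour and reference the same strain (mean 2.26, standard error 0.44; limma adjusted p = 0.0011). In the mixed tumours it had -0.07 in A18, 1.81 in 231 Trig, 2.26 in A202, 0.55 in A390, -0.36 in A292, 2.09 in A382 and -0.51 in A394. By ratio the mixed tumours 231 Trig, A202 and A382 were near the C57BL/6J level. A390 lay in between, and A18, A292 and A394 were at or below 0. In the tumour channel Olfr918 ranged from -2.28 to 0.64 in mixed and from 0.45 to 0.74 in C57BL/6J tumours. In that channel A382 (0.64) lay in the C57BL/6J range, while 231 Trig (-0.23) and A202 (-0.26) lay below it. The reference channel ranged from -2.52 to -1.34 on mixed and from -2.28 to -1.28 on C57BL/6J arrays. It was lower on slide 1, which held 231 Trig, A202 and B86 (-2.52 to -1.94), than on the other slides (-1.74 to -1.28).

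Olfr915, a neighbour of Olfr918, had 1.03 in B86, 1.02 in B91, 1.00 in B96 and 0.86 in B76, while the mixed tumours ranged from 0.17 to 1.03 around a median of 0.41. A pair on chromosome 1 went opposite ways. Olfr1404 had 0.94 in B86, 1.14 in B91, 0.99 in B96 and 0.89 in B76, and Olfr1403 had -1.01 in B86, -1.06 in B91, -0.98 in B96 and -0.97 in B76. These probes lie about as far from the reference in opposite directions, within the same cluster.

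In the mixed tumours the pair moved in step. Olfr1404 had -0.21 in A18, 1.01 in 231 Trig, -0.07 in A202, 0.18 in A390, 1.07 in A292, 0.23 in A382 and 0.77 in A394. Olfr1403 had -0.15 in A18, -0.91 in 231 Trig, -0.11 in A202, -0.29 in A390, -1.02 in A292, -0.38 in A382 and -0.61 in A394. The tumours 231 Trig and A292 were at the C57BL/6J level at both probes, A394 was nearer to it than to 0, and A18, A202, A390 and A382 were nearer to 0. The differences between backgrounds were -0.56 with a standard error of 0.23 at Olfr1404 and 0.51 with a standard error of 0.16 at Olfr1403, with limma adjusted p of 0.62 and 0.38. The next probe after Olfr1403, from 175236784 and without a gene name, ran much like Olfr1404. It had -0.34 in A18, 0.66 in 231 Trig, 0.28 in A390, 1.30 in A292, 0.55 in A382 and 0.99 in A394, with A202 at -0.003. In C57BL/6J tumours it had 0.77 to 1.48. The Fcer1a probe between the pair had -0.34 to 0.13 in C57BL/6J tumours.

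Olfr207 on chromosome 16 was low in C57BL/6J tumours, with -0.58 in B86, -0.62 in B91, -0.62 in B96 and -0.67 in B76. In mixed tumours it had 0.13 in A18, 0.84 in 231 Trig, -0.59 in A202, 0.50 in A390, 0.31 in A292, 0.90 in A382 and 0.33 in A394. All mixed tumours but A202 lay above the C57BL/6J range (difference 0.97, standard error 0.22; limma adjusted p = 0.16). Each setting that called Olfr207 between backgrounds left out A202, the mixed tumour that overlapped, so those calls add no support for a difference. Olfr644 was called without A202 too, which had the highest of the mixed values there (-0.29).

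Olfr745 on chromosome 14 had 3 probes far apart in value. The probe from 51262595 had -1.43 in B86, -1.25 in B91, -1.41 in B96 and -1.63 in B76, while the mixed tumours ranged from -1.52 to -0.08 around a median of -0.59. The probe from 51262865, described after its values were seen, averaged 0.43 ± 0.27 in mixed and 0.68 ± 0.05 in C57BL/6J tumours (SD, n = 7 and 4). Probes of the same gene less than 1 kb apart thus lay on opposite sides of the reference.

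The other probes of the highest and lowest named in C57BL/6J tumours were offset in both backgrounds. Olfr1427 on chromosome 19 averaged 0.43 ± 0.35 in mixed tumours (n = 6) and 0.84 ± 0.08 in C57BL/6J tumours (SD, n = 4), with the A202 spot dropped by its mark. Olfr1414 on chromosome 1 averaged 0.92 ± 0.19 in mixed and 0.81 ± 0.12 in C57BL/6J tumours (SD, n = 7 and 4). Olfr313 on chromosome 11 averaged -0.75 ± 0.24 in mixed and -0.87 ± 0.37 in C57BL/6J tumours, with values that followed slide as described above. Olfr482 on chromosome 7 averaged -0.72 ± 0.45 in mixed and -0.79 ± 0.37 in C57BL/6J tumours, and at 16.7% its probe has the lowest GC content of the probes named. Its tumour channel averaged -3.70 in mixed and -3.47 in C57BL/6J tumours, and its call in C57BL/6J tumours was lost with another background correction (normexp). The 24 probes called at that size in C57BL/6J tumours lay in 13 clusters.

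Single tumours were also set against the mean of the 4 C57BL/6J tumours, or, for a C57BL/6J tumour, of the other 3, at a step of 0.5 log2 chosen after the values were seen. In A18, 3.5% of olfactory receptor probes were lower by that step, beside 2.54% of all autosomal probes, and in A202 2.12% beside 1.75%. The share was 1.37% in 231 Trig beside 1.99%, 1.35% in A390 beside 0.859%, 1.35% in A292 beside 0.742%, 0.901% in A382 beside 0.835% and 1.35% in A394 beside 0.778%. In the C57BL/6J tumours it was 1.51% in B86 beside 1.99% and 0% in B91, B96 and B76, beside 0.172%, 0.147% and 1.27%. Probes higher by the step made up 1.07% of olfactory receptor probes in A18 beside 1.7% of all autosomal probes, 0.916% in 231 Trig beside 1.05%, 0.607% in A202 beside 1.31% and 0.3% in A390 beside 0.715%. They made up 0.751% in A292 beside 0.356%, 0.751% in A382 beside 0.378% and 0.45% in A394 beside 0.378%. In the C57BL/6J tumours they made up 0.755% in B86 beside 0.525%, 0.15% in B91 beside 0.43%, 0.15% in B96 beside 0.0712% and 0% in B76 beside 0.589%.

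In 2 or more mixed tumours, 18 olfactory receptor probes were lower by the step, or 2.7% beside 1.75% of all autosomal probes, and 5 were higher, or 0.751% beside 0.992%. Of the 18, 8 lay in the chromosome 2 cluster, which holds 126 of the 666 probes. Whether they gather there was not tested. At Olfr1010, Olfr1030 and Olfr1264 the lower tumours were A18 and A202 alone, both on slide 1. Of the 666 probes, 19 had an SD above 0.3 over the mixed tumours, or 2.85% beside 3.68%, and 10 had one over the C57BL/6J tumours, or 1.5% beside 3.07%. The median SD over mixed tumours was 0.10 for olfactory receptor probes and 0.11 for all autosomal probes.

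**Figure D5:**
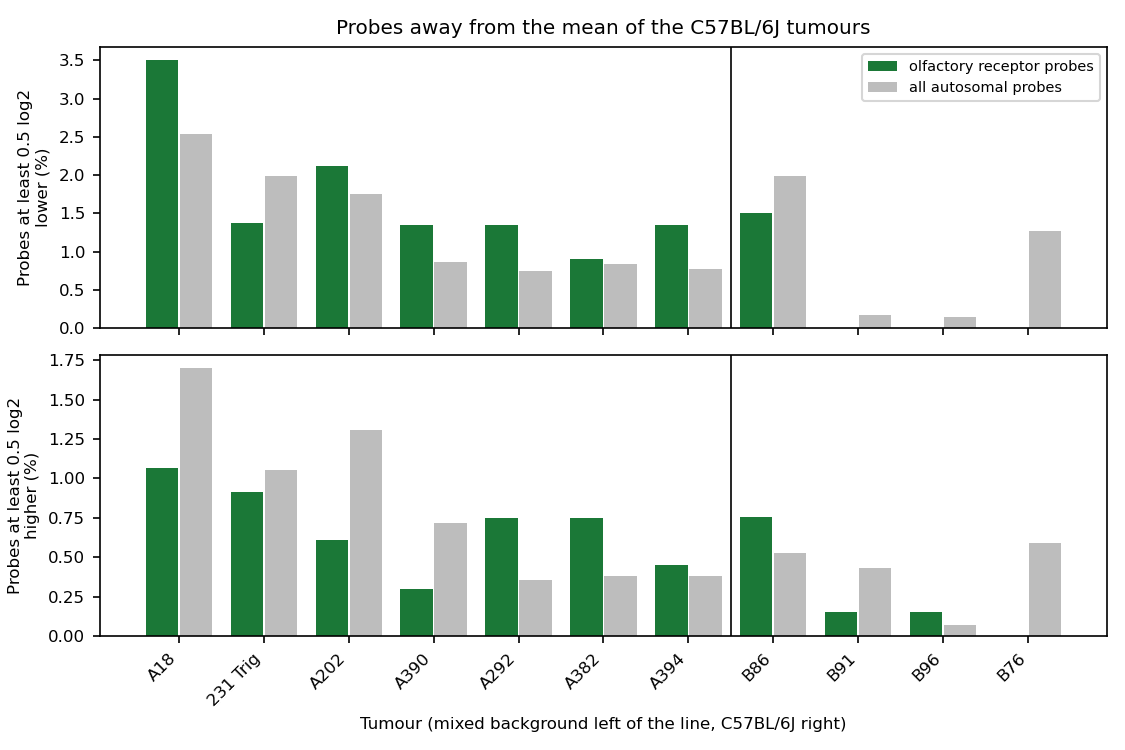
Percentage of olfactory receptor probes (green) and of all autosomal probes (grey) at least 0.5 log2 lower (top) or higher (bottom) than the C57BL/6J mean (for a C57BL/6J tumour, the mean of the other 3), by tumour, with mixed tumours left of the line. The highest share of olfactory receptor probes is 3.5%, lower in A18, and it is 0% lower in B91, B96 and B76.

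Wider stretches gave no call. Of 1876 windows of 1 Mb with at least 5 probes, 7 consisted mostly of olfactory receptor probes, and none of these was called in limma, beside 0 of all windows. At an unadjusted p under 0.05, 2 of the 7 passed, or 28.6% beside 8.85% of all windows. All 7 had a lower mean in mixed than in C57BL/6J tumours, with differences from -0.17 to -0.02. The share of all windows lower in mixed tumours was not counted, so 7 of 7 is not read as a trait of these windows. The lowest difference was that of the window from 85000001 to 86000000 on chromosome 2, at -0.17, with means of -0.08 in mixed and 0.09 in C57BL/6J tumours (limma adjusted p = 0.53). A18 had -0.33 and A202 -0.24 in that window, against -0.07 to 0.10 in the other mixed tumours. The window from 110000001 to 111000000 on chromosome 7 had 0.04 in mixed and 0.11 in C57BL/6J tumours.

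Other chemosensory families were few on the array. Of 65 probes of vomeronasal receptors, which detect pheromones, 1 was called lower and none higher between mixed and C57BL/6J tumours. That is 1.54% lower beside 0.0417% of all autosomal probes, and with 1 probe it cannot be told apart from that background. None of 29 taste receptor probes, 4 trace amine receptor probes and 3 formyl peptide receptor probes was called in that comparison, beside 0.135% of all autosomal probes in either direction. Over the reference, 17 vomeronasal probes were called higher and 3 lower in mixed tumours, and 7 taste receptor probes higher and none lower, or 26.2% and 24.1% higher beside 13.4% of all autosomal probes. In C57BL/6J tumours 21 vomeronasal probes were called higher and 3 lower, and 11 taste receptor probes higher and none lower, or 32.3% and 37.9% higher beside 14.9%. The shares called lower were 4.62% and 0% in each background, beside 14.9% of all autosomal probes in mixed and 16% in C57BL/6J tumours. Of the 766 other probes inside the olfactory receptor clusters, 4 were called higher and none lower in mixed than in C57BL/6J tumours, or 0.522% beside 0.0933% for higher.

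A list of 20 genes of olfactory signalling and receptor choice had 26 autosomal probes in 14 genes. None was called between mixed and C57BL/6J tumours. Over the reference, 1 probe was called higher and 6 lower in mixed tumours, and 1 higher and 6 lower in C57BL/6J tumours. Of all autosomal probes 13.4% were called higher and 14.9% lower in mixed tumours, and 14.9% and 16% in C57BL/6J tumours, so that 6 of 26 lower is not read as a trait of the list. Gnal, the G protein subunit that olfactory receptors couple to, had a probe at 0.29 ± 0.09 in mixed and 0.37 ± 0.06 in C57BL/6J tumours, called higher in both. Its second probe had -0.18 ± 0.14 in mixed and -0.19 ± 0.10 in C57BL/6J tumours (SD, n = 7 and 4). Of the 3 probes of Ebf1, a transcription factor of olfactory neurons, 2 were called lower in both, the lower of them at -0.66 ± 0.23 in mixed and -0.74 ± 0.23 in C57BL/6J tumours. Adcy3, the adenylyl cyclase of the olfactory cilium, had 3 probes between -0.14 and -0.03 in mixed and between -0.16 and -0.05 in C57BL/6J tumours, none called.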

How the data were processed

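Tumour DNA (Cy5) and Schwann cell DNA (Cy3) were hybridised to 12 Agilent 2-colour arrays. Each deposited value is a log10 ratio with tumour on top, background-subtracted and dye-normalised by the scanner software, per the file headers. The deposited files also give each channel's intensity, as scanned and processed, per the file headers. Feature Extraction 9.5 and build mm9 are named in the submitters' processing notes. The log10 ratios deposited in the value table of the series equalled those of the scanner files.

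Ratios were turned into log2, spots that the software had marked as non-uniform or population outliers were set to missing, spots of a probe were averaged, and the 2 arrays of A382 were averaged. Each array was centred on its autosomal and then on each chromosome's median. Channel intensities were treated likewise. The fit (limma 3.58.1 in R 4.3.3; mixed and C57BL/6J means, 11 tumours) ran over all 40726 autosomal probes, and p-values were Benjamini-Hochberg adjusted over all of them; a call needed an adjusted p under 0.05 and 0.2 log2. It was tested on simulated data. Of the olfactory receptor probes, 28 lacked a value in at least 1 tumour. Olfactory receptor probes less than 1 Mb apart formed a cluster. Nothing says whether cultures shared a litter or were independent beyond their names, so p-values measure only the spread between these samples, and the number of arrays limits the precision.

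Named were up to 10 called probes per direction between backgrounds, up to 5 per direction over the reference in C57BL/6J tumours, at most 3 of a cluster per list, Olfr1046 and Olfr1048 whatever their values, the 10 largest clusters and each tumour's highest and lowest cluster. The members and lists were chosen with earlier results of these data known. Alternatives changed the centring, background correction, dye normalisation, spot and brightness filters, slide, size minimum, smoothing and tumours. Tables were handled in pandas 2.3.3 with numpy 2.4.6 under Python 3.11.15. The 4 Olfr probes on X were not used.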

Additional observations from a re-analysis of the deposited data

Results flagged for a closer look

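Over 64 groups of 4 to 7 tumours, 5 had a tumour far from the others of its background for its range, where chance gives about 1 in 20. B76 was low among the C57BL/6J tumours at Olfr915 (0.857) and in 3 clusters, those on chromosome 2 from 85240363 (0.0017), on chromosome 9 from 37800052 (0.0589) and on chromosome 14 from 50513994 (-0.0718). A202 was low among the mixed tumours in the cluster on chromosome 4 from 43708513 (-0.2164), through the probe of Olfr156. The backgrounds differed by the limma test at Olfr643 (0.7425) and Olfr575 (-0.4218), as described above.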

How the results depend on the processing

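Between backgrounds, 2 olfactory receptor probes were called. The count was 0 with autosome median centring, with a running median of 5 probes and with slide as a block, and 1 with marked spots kept and with a size minimum of 0.5. Leaving out 1 tumour at a time gave 0 to 4 calls, with 4 (Olfr575, Olfr643, Olfr644 and Olfr207) without A202. Over the reference, the 160 calls in mixed tumours became 39 with the running median, 388 with no size minimum and 15 with a size minimum of 0.5, and ranged from 145 to 170 over the tumours left out. The 183 calls in C57BL/6J tumours became 70, 311 and 24 under those same settings, and ranged from 169 to 198. In the tumour channel 2 probes (Olfr594 and Olfr207) were called without slide 1. Cluster means past 0.2 numbered 22, against 105 with autosome median centring, which leaves whole-chromosome shifts in, and 36 with centring on the flanks. The running median mixes each probe with its neighbours. It turned the sign of the difference between backgrounds at Olfr643 (-0.071) and Olfr575 (0.0297). It also turned the sign of the C57BL/6J mean over the reference at Olfr1404 (-0.0946), Olfr1414 (-0.039), Olfr745 (0.0619) and Olfr1403 (0.0215). For the other changes the cause was not tested. Without slide 1 the calls between backgrounds were Olfr575, Olfr594 and Olfr207. Adjustment for GC content, with 2 calls, and leaving out A18 and A202 together, with 3 (Olfr575, Olfr643 and Olfr207), were chosen after seeing the data. No paired analysis was possible because replicate numbers only name the tumours in accession order.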
